A study of Mus musculus with 18 samples.

Results

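Ephrins, Eph receptors, semaphorins, plexins and neuropilins were followed as 1 set of guidance genes through the cardiac differentiation of mouse embryonic stem cells. The set was chosen by name: every gene of the arrays whose symbol is an ephrin (Efna, Efnb), an Eph receptor (Epha, Ephb), a semaphorin (Sema), a plexin (Plxn), Nrp1 or Nrp2, each read from its brightest probe set. This gave 53 of 18193 genes: 8 ephrins, 13 Eph receptors, 20 semaphorins, 10 plexins and 2 neuropilins. One of those counted as plexins, Plxna4os1, is an antisense transcript and not a plexin. Of the 53 genes, 47 reached 22.5, which is the median of all signals, on 2 or more of the 18 arrays and were tested. The other 6 (Epha10, Epha6, Epha8, Ephb6, Plxna4os1 and Sema4a) did not, and none of the probe sets read for them exceeded 26.7 on any array. Probe sets of type x (names ending in x_at) were passed over where the gene had another. A brighter one was so set aside for 2 members, Sema4a and Sema3f. The type x probe set of Sema4a reached 39.2. That of Sema3f reached 5866.4, while the probe set read for Sema3f reached 97.2, so its values depend on this choice. Among the 47, 2 reached 22.5 on arrays of 1 kind only: Sema3g on 6 GFP-positive arrays and Sema3e on the 2 cardiomyocyte arrays. These 2 entered the test through the group where they are high, so their place in a count of called members is no support for it.

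The cells were of the D3 embryonic stem cell line, differentiated in floating aggregates (embryoid bodies) in medium with ascorbic acid. GFP came from a transgene in which an Nkx2-5 enhancer acts on the hsp68 minimal promoter, in hygromycin-resistant cells; the labels speak of clones and do not say how many were used. GFP-positive and GFP-negative cells were sorted on days 5, 6, 7 and 8, with 1 array of batch 1 and 1 of batch 2 for each day and fraction, which gave 16 arrays. The other 2 arrays were of cardiomyocytes selected with the antibiotic G418 from a separate clone, in which the alpha myosin heavy chain promoter drives neomycin resistance, with no day and no batch in the labels. The cells therefore share the D3 background, and the cardiomyocytes differ from the sorted cells in clone, selection and possibly age, which cannot be told apart. Nothing in the labels tells if both arrays of a group are from separate cultures. The p-values then reflect only the spread among the samples at hand, possibly a technical one.

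Eph receptors are receptor tyrosine kinases whose ligands, the ephrins, sit on the surface of neighbouring cells: A-type ephrins through a lipid anchor and B-type ephrins through a membrane-spanning segment. Contact between them sorts cells and sets boundaries, as between arteries, which carry Efnb2, and veins, which carry Ephb4. Semaphorins signal through plexins, and most secreted semaphorins of class 3 also need a neuropilin; Sema3e, which binds plexin-D1 directly, is an exception. In the embryo, plexin-D1 is a receptor of endothelial cells, and Sema3c acts in the outflow tract of the heart.

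Values are MAS5 signals, and differences are given as log2(signal + 6.8) with the standard error (SE) of a limma fit to all 18 arrays, a scale that understates changes of dim genes. A gene was called when its p-value, adjusted over 13379 genes, was under 0.05. In all 8 pairs of fractions that share a day and a batch, the GFP-positive array had more Nkx2-5 signal. The batches of an early day were not alike: on day 5 the GFP-positive array of batch 1 had a Myh6 signal of 729.5 and that of batch 2 had 19.5. These are bulk samples, so fewer cells of a type and less RNA per cell cannot be told apart.

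The guidance genes called between the fractions over the whole course are each known from blood vessels. That shared trait was not tested. Nrp1 and Nrp2, also known from heart or vessel development, were not called, at 0.17 ± 0.24 (limma adjusted p = 0.755) and 0.43 ± 0.23 (0.346). Over days 5 to 8 the receptor Plxnd1, the class 3 semaphorin Sema3g, the arterial ephrin Efnb2 and the venous receptor Ephb4 were higher in GFP-positive cells, and no guidance gene was called lower. These are 4 of the 47 tested members, 8.5%, where 2.68% of all 13379 genes were called, 2.14% higher and 0.538% lower. In the comparison of days 7 and 8 alone, Efna1, Efna4, Epha2 and Sema7a were called higher as well. The change of their difference from days 5 and 6 was not called. In the selected cardiomyocytes Plxnd1, Sema3g, Efna1, Efnb2 and Ephb4 were all lower than in the GFP-positive cells of days 7 and 8.

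Plxnd1 showed the clearest difference of the set. Its signal in GFP-positive cells was 270.9 and 133.0 on day 5, 411.5 and 204.9 on day 6, 500.5 and 359.6 on day 7, and 642.5 and 431.4 on day 8, batch 1 first. In GFP-negative cells it was 98.8 and 48.5, then 146.1 and 125.5, 194.4 and 108.2, and 139.4 and 102.0. Every GFP-positive array was above its GFP-negative partner of the same day and batch, although the lowest GFP-positive array of day 5 lay within the GFP-negative range. The difference over all days was 1.50 ± 0.22 (log2, SE; 8 arrays against 8; limma adjusted p = 0.00385), with 1.58 within batch 1 and 1.42 within batch 2. It was called in all 18 fits that left out 1 array.

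Sema3g, a secreted semaphorin of vessels, was dim early and rose to its highest signals on day 8. In GFP-positive cells it measured 24.2 and 5.3 on day 5, 51.2 and 17.5 on day 6, 97.0 and 38.7 on day 7, and 160.8 and 145.4 on day 8. The GFP-negative arrays stayed between 2.0 and 21.1, so 7 of 8 pairs were higher in GFP-positive cells and the pair of day 5, batch 2, was not. All 8 GFP-negative arrays were below 22.5, so the size of the difference rests on dim signals. Over all days it was 1.45 ± 0.30 (limma adjusted p = 0.0246), and with no filter on dim genes the adjusted p over 18193 genes was 0.0293. It was not called without the batch 1 GFP-positive array of day 6 (adjusted p = 0.0626), day 7 (0.0712) or day 8 (0.0637), the batch 2 GFP-negative array of day 7 (0.0558) or the batch 2 GFP-positive array of day 8 (0.063).

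The start regions of Plxnd1 and Sema3g are shown, from the members called higher in the late GFP-positive cells and lower in the cardiomyocytes. Efna1, Efnb2 and Ephb4 were called in the same directions, and their windows are not printed. The sequences are RefSeq windows of mouse build GRCm38.p6, from 250 bases before to 50 bases after the start of the gene, 5′ to 3′ on the strand of the gene. They lie at chr6:115994956-115995255 (minus strand) and chr14:31217623-31217922 (plus strand). Capitals mark a match to a T-box motif.
Plxnd1: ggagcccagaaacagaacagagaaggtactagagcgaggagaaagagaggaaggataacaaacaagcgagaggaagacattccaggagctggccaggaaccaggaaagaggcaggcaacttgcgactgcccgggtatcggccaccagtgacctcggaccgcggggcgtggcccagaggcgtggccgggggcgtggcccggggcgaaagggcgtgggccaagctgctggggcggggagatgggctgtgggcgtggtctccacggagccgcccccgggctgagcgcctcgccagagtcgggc
Sema3g: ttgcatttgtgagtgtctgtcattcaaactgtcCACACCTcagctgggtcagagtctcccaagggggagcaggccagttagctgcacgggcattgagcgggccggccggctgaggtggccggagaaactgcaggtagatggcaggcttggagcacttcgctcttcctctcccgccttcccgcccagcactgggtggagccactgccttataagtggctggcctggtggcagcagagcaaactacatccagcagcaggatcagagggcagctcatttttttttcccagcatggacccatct
Both strands were searched for 5 motifs, whose shares are given over 32851 promoter windows of the same length. The letters AGATAA, of GATA factors, were in 11.2% of the windows. NKX2-5 is represented by TNAAGTG, found in 11.5%, and ETS factors by CCGGAAG, found in 8.9%. For SOX factors, ACAANGG was in 13.6%. The T-box letters AGGTGTG were in 5.8%. The Plxnd1 window held none of these letters, and that of Sema3g held the T-box letters once, on the opposite strand, 217 bases before the start. The windows of Efna1, Efnb2 and Ephb4 held none of the 5 motifs. The G and C content was 67.0% for Plxnd1 and 58.7% for Sema3g, against a median of 52.7% over all windows. A match is a description of letters and not of a bound site.

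Efnb2, the B-type ephrin of arteries, was bright in every sample. GFP-positive cells had 518.0 and 718.6 on day 5, 564.9 and 400.3 on day 6, 821.8 and 449.6 on day 7, and 1469.7 and 1141.2 on day 8. GFP-negative cells had 265.7 and 294.7, 240.7 and 300.9, 358.1 and 153.6, and 574.5 and 148.0. All 8 pairs were higher in GFP-positive cells, by 1.34 ± 0.26 (log2, SE) on average with limma adjusted p = 0.0188, 1.17 within batch 1 and 1.52 within batch 2. Without the batch 1 GFP-positive array of day 6, 7 or 8 the adjusted p was 0.0548, 0.0606 or 0.0555.

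Ephb4, the receptor for Efnb2 on veins, differed less. Its GFP-positive signals were 98.8 and 89.5 on day 5, 87.0 and 61.3 on day 6, 102.7 and 89.8 on day 7, and 116.6 and 214.1 on day 8. The GFP-negative signals were 61.8 and 84.7, 62.2 and 53.5, 58.9 and 35.2, and 72.0 and 25.3. Every pair was higher in GFP-positive cells, with a mean of 0.84 ± 0.20 and limma adjusted p = 0.0444. The call was close to the threshold: 5 of 18 fits that left out 1 array kept it, and the adjusted p reached 0.119 without the batch 1 GFP-positive array of day 7. Of the 4 members called over all days, 1 was called without the batch 1 GFP-positive array of day 6 or day 7. There were 2 without either GFP-positive array of day 8 or the batch 2 GFP-negative array of day 7.

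**Figure D1:**
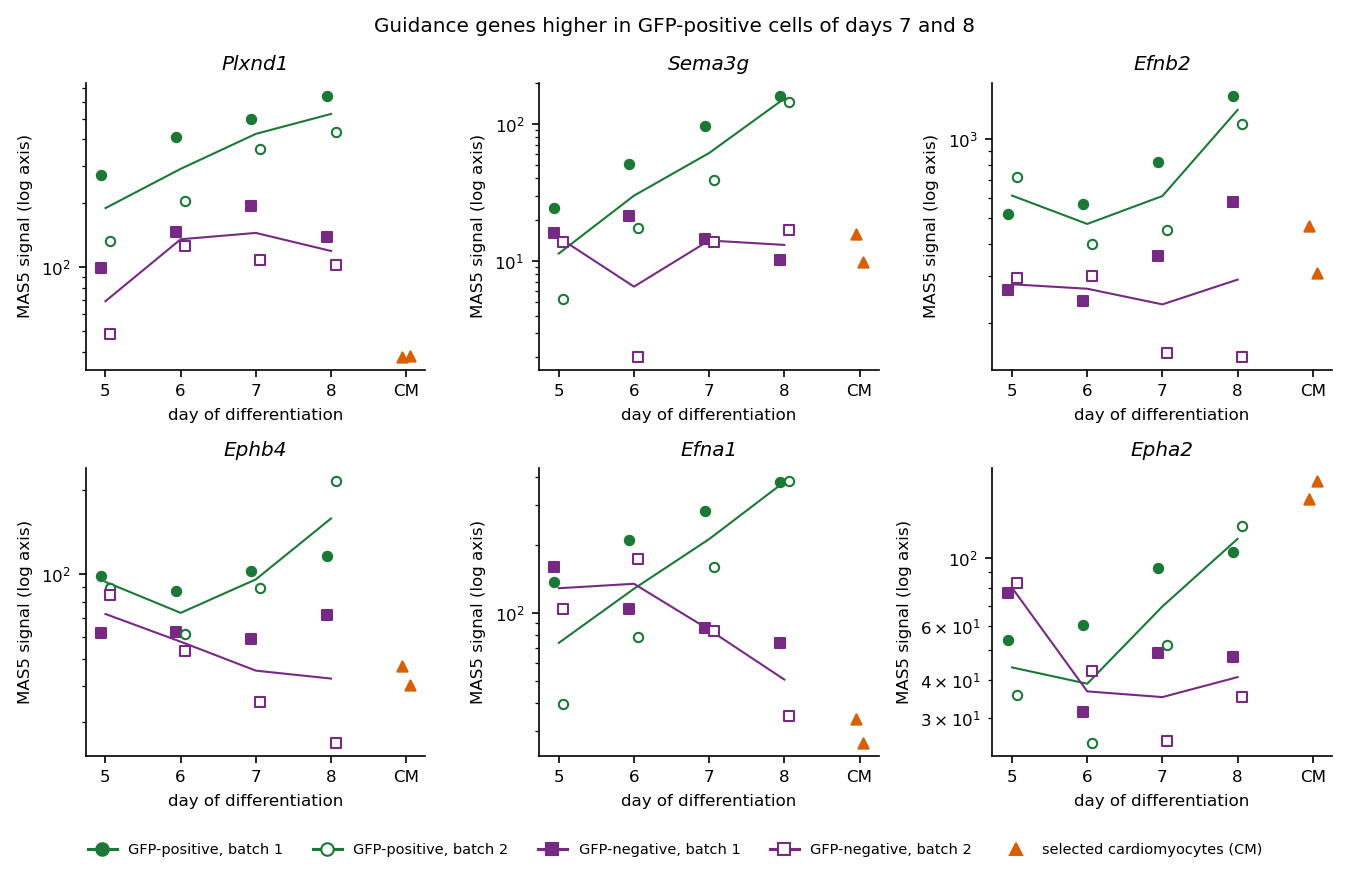
MAS5 signal (log axis) of 6 guidance genes by day of differentiation; points are single arrays, with green circles for GFP-positive and purple squares for GFP-negative cells, filled for batch 1 and open for batch 2, lines are geometric means of the batches, and orange triangles are selected cardiomyocytes (CM). The GFP-positive arrays of Plxnd1 lie above their GFP-negative partners on every day, while those of Efna1 and Epha2 are above theirs in both batches only on days 7 and 8.

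Considering days 7 and 8 alone, 8 of the 47 tested guidance genes were higher in GFP-positive cells and 0 were lower. That is 17.0% of the members, beside 6.63% of all genes called in this comparison, 5.12% higher and 1.51% lower. Sema3g is among the 8 and reached 22.5 on GFP-positive arrays only, so its place in this count is no support for it. The 8 were 3 ephrins of 8, 2 Eph receptors of 9, 2 semaphorins of 19, 1 plexin of 9 and 0 of the 2 neuropilins. The median difference of the 47 members was 0.32, with 0.01 within batch 1 and 0.69 within batch 2, and the median of all genes was 0.01. Plxnd1 differed by 1.79 ± 0.30 (limma adjusted p = 0.00615), Sema3g by 2.36 ± 0.43 (0.00867), Efnb2 by 1.73 ± 0.37 (0.019) and Ephb4 by 1.34 ± 0.28 (0.0177). The value of Sema3g is against GFP-negative arrays of 10.2 to 16.8, all below 22.5, and with no filter its adjusted p was 0.0103. For Efnb2 the fractions overlapped, the lowest GFP-positive array having 449.6 and the highest GFP-negative array 574.5. For the other called genes they did not. The share of all called genes without overlap is not given, so this describes these genes only.

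Efna1, an A-type ephrin induced in endothelial cells by inflammatory signals, was called higher in GFP-positive cells of days 7 and 8. The GFP-positive signals of days 7 and 8 were 282.4, 158.6, 376.6 and 381.1. The GFP-negative signals were 85.6, 82.7, 73.8 and 34.8, with no overlap. The difference was 2.00 ± 0.38 (log2, SE; 4 arrays against 4; limma adjusted p = 0.0124), with 1.95 within batch 1 and 2.05 within batch 2. On days 5 and 6 the fractions had overlapped, with 39.5 to 209.3 in GFP-positive and 103.9 to 173.6 in GFP-negative cells. The other A-type ephrin called, Efna4, had 88.1, 62.8, 98.8 and 93.2 in GFP-positive cells of days 7 and 8 against 49.0, 46.1, 61.4 and 40.7, a difference of 0.72 ± 0.19 (adjusted p = 0.0391).

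Epha2, a receptor for A-type ephrins, had late GFP-positive signals of 92.8, 52.1, 104.9 and 127.3 and GFP-negative signals of 49.1, 25.2, 47.6 and 35.1. The difference was 1.11 ± 0.28 (limma adjusted p = 0.0337). Sema7a, a semaphorin held on the membrane by a lipid anchor, had 52.5, 41.3, 82.7 and 135.2 against 7.9, 19.3, 32.9 and 33.0, a difference of 1.48 ± 0.41 (adjusted p = 0.0473). Both pairs of groups were apart, by a small margin for Epha2. The call of Sema7a was kept in 6 of 18 fits that left out 1 array. With batch as a covariate, Sema4c (1.06; adjusted p = 0.0552 before and 0.0329 with it) and Sema6a (0.94; 0.0547 and 0.0421), both membrane-bound semaphorins, were called higher as well. Epha3, the receptor discussed below, was then called lower in GFP-positive cells (-1.72, with limma adjusted p = 0.0878 before and 0.0448 with it).

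The count of 8 rested on few arrays. Without the batch 1 GFP-positive array of day 7 only Plxnd1 was called. The count was 2 without the batch 2 and 4 without the batch 1 GFP-positive array of day 8, and 3 without the batch 2 GFP-negative array of day 7. It was also 3 without the batch 2 GFP-negative array of day 8, 1 of them lower, and 5 without either cardiomyocyte array, which enter this comparison only through the estimate of the spread. It was 5 as well with equal array medians, which moved the median of all genes from 0.01 to -0.19. Plxnd1 was called in all of these fits.

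Other cell types moved with these genes. The summed signal of 15 endothelial markers was 6001 to 10922 in GFP-positive and 1792 to 2748 in GFP-negative cells of days 7 and 8, and 11 of the 15 were called higher. That of 10 visceral endoderm markers was 6909 to 20398 against 1958 to 4625, with 6 of 9 tested called higher. That of 13 heart muscle markers was 21093 to 33924 against 4154 to 12349, with 1 called. The sum of 8 fibroblast markers ran the other way, with 2414 to 3018 against 3574 to 20710. None of the lists had a gene at 0, and their part in the differences of the guidance genes was not tested.

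**Figure D2:**
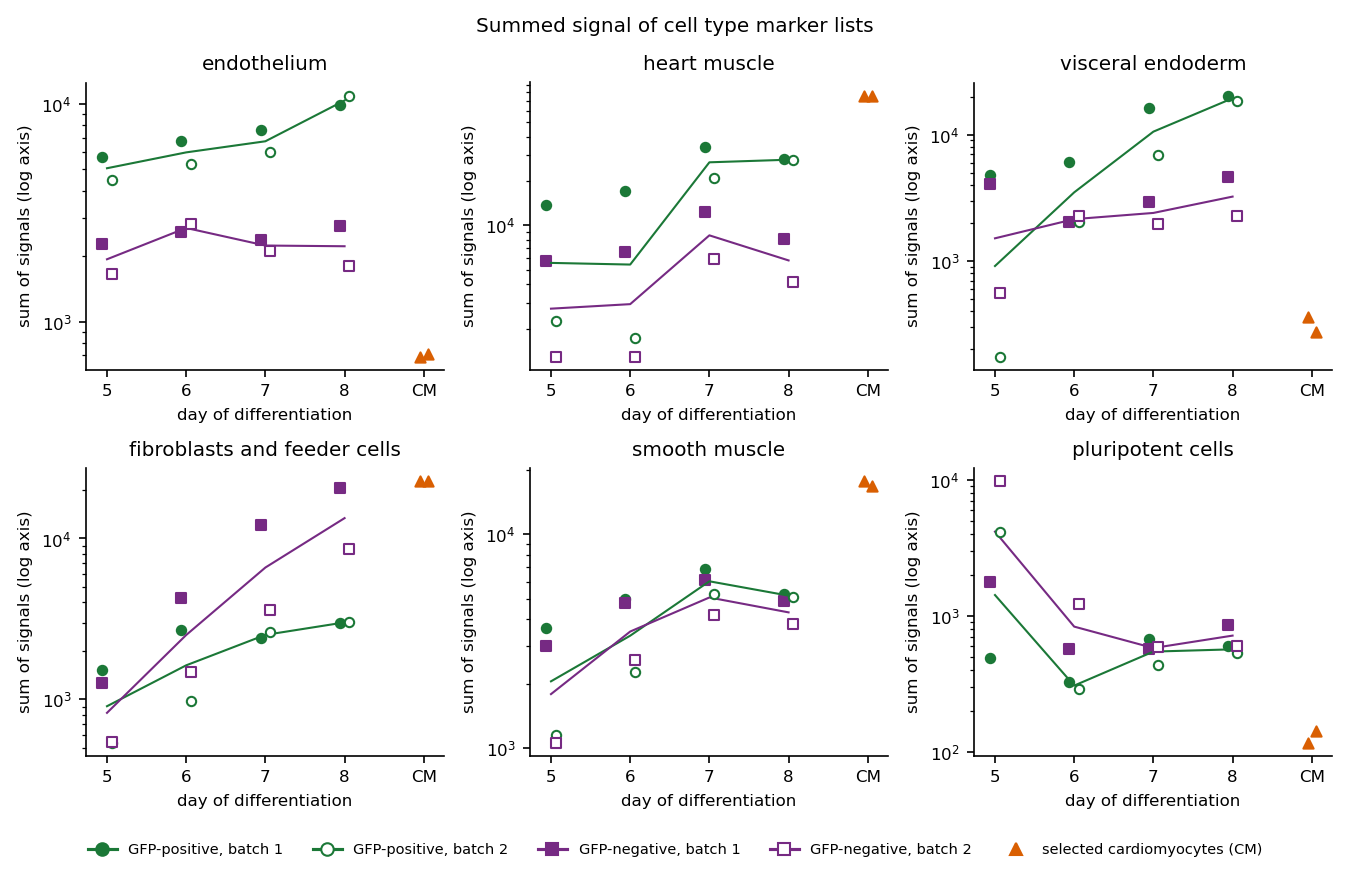
Sum of the MAS5 signals (log axis) of 6 marker lists by day of differentiation, one point per array, with the same symbols for fraction and batch as in the plot of guidance gene signals and lines for the geometric mean of the batches. The endothelial sum of every GFP-positive array, 4483 or more, exceeds that of every GFP-negative array, 2805 or less, and both cardiomyocyte arrays lie at 690 and 707.

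On days 5 and 6 no member was called, and 20 of all genes, 0.149%, were, with 0.0523% higher and 0.0972% lower. With limma, 7 members had an unadjusted p under 0.05, a count for which the share of all genes at that level is not given. The largest differences were those of Plxnd1, at 1.22 ± 0.30 (adjusted p = 0.245), and Plxnc1, a plexin that binds Sema7a, at 1.04 ± 0.54 (0.816). The lowest were those of the receptors Epha1, at -1.07 ± 0.49 (0.741), and Epha7, at -0.74 ± 0.46 (0.879). With batch as a covariate Plxnd1 was called, with adjusted p = 0.0101. Its GFP-positive and GFP-negative values of these days overlapped only through the day 5 array of batch 2, at 133.0.

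Whether the difference between the fractions grew was tested directly, as the late difference minus the early one. No member was called in this test, and 0.142% of all genes were called, all higher. With limma 12 members had an unadjusted p under 0.05, and the share of all genes at that level is not given. Efna1 had the largest change, 2.40 ± 0.54 (log2, SE; adjusted p = 0.0781), with 1.57 within batch 1 and 3.23 within batch 2. It passed the threshold with batch as a covariate (adjusted p = 0.0369). Epha1 followed with 2.28 ± 0.70 (0.183). At the other end were Epha3 with -1.21 ± 0.80 (0.561) and Nrp2 with -0.64 ± 0.46 (0.589). No gene's late call is thus shown to be a difference that grew. In fits that left out 1 array, 1 member was called without the batch 1 array of day 5 of either fraction, and 2 without the batch 1 GFP-positive array of day 6.

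Within the GFP-positive fraction, 7 members rose from days 5 and 6 to days 7 and 8 and 0 fell. This is 14.9% of the members, below the 19.4% of all genes called in this comparison, where 11.3% were higher and 8.03% lower. They were 4 semaphorins (Sema3c, Sema3g, Sema4b and Sema4d), Efna1, Epha2 and Plxnd1. Sema3c, a secreted semaphorin of the outflow tract, had 14.2, 15.4, 33.2 and 2.7 early and 69.1, 34.7, 100.1 and 81.8 late. Late and early arrays did not overlap, and the rise was 1.85 ± 0.50 (limma adjusted p = 0.0237). In the comparison of the fractions Sema3c was not called, with 0.38 ± 0.50 on days 7 and 8 (adjusted p = 0.69).

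Sema4b and Sema4d, membrane-bound semaphorins of class 4, rose by 1.04 ± 0.23 (limma adjusted p = 0.011) and 1.06 ± 0.29 (0.0251). Sema4b went from 36.5, 43.3, 52.0 and 45.3 to 81.1, 91.2, 133.7 and 91.6, without overlap. Sema4d went from 71.5, 46.7, 112.4 and 41.6 to 123.6, 106.3, 163.4 and 177.5, where 1 early array reached into the late range. The rise of Sema3g was 1.96 ± 0.43 (0.0104), of Efna1 1.47 ± 0.38 (0.0209), of Epha2 1.00 ± 0.28 (0.0262) and of Plxnd1 0.99 ± 0.30 (0.0392). The lowest values were those of Sema5a, at -0.50 ± 0.32 (0.289), and Sema6c, at -0.46 ± 0.20 (0.122).

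The class 6 semaphorin Sema6d, which acts in the growth of heart chambers, was not called, though its late arrays (425.3, 333.0, 601.8 and 636.5) all exceeded its early ones (207.9, 252.0, 293.4 and 116.4). The difference was 1.20 ± 0.43 (limma adjusted p = 0.0642). With batch as a covariate the receptor Epha7 (1.30; adjusted p = 0.0203) and the secreted semaphorins Sema3a (1.02; 0.0285) and Sema3b (1.19; 0.0364) were called too, which made 10. Without the batch 2 GFP-positive array of day 6 no member was called. The count was 1 without the batch 1 array of day 7, and 2 without the batch 2 array of day 5 or either array of day 8. With equal array medians, which moved the median of all genes from 0.09 to -0.29, 4 members rose and 2 fell. Endothelial, heart muscle and visceral endoderm sums also rose, from 4483 to 6768, 1732 to 17011 and 175 to 6044 early to the late ranges given above, and their part was not tested.

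In the GFP-negative fraction 4 members changed between the same days, 8.5% beside 12.5% of all genes (7.25% higher and 5.25% lower). The receptor Epha3, known from heart valve formation, rose by 2.08 ± 0.57 (log2, SE; limma adjusted p = 0.032). Its early signals were 7.7, 10.0, 25.6 and 7.1, and its late ones 64.4, 21.1, 387.8 and 37.9, the high value being the batch 1 array of day 8. Without that array the rise was 1.29 and the adjusted p 0.0677. With the mean of its probe sets Epha3 was not called either (limma adjusted p = 0.105). Sema4d rose by 0.99 ± 0.29 (0.0421), from 89.0, 89.5, 101.4 and 71.3 to 195.7, 89.5, 211.5 and 281.4. This call of Sema4d was kept in 6 of 12 other settings, with a highest limma adjusted p of 0.265, and was lost with the mean of its probe sets. The overlap of its groups came from the day 7 array of batch 2.

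Efna4 fell in these cells by 0.70 ± 0.19 (limma adjusted p = 0.0299), from 96.2, 115.1, 60.8 and 71.0 to 49.0, 46.1, 61.4 and 40.7. Sema6c, a class 6 transmembrane semaphorin, fell by 0.72 ± 0.20 (0.036), from 574.1, 533.8, 537.4 and 385.9 to 247.9, 235.8, 269.8 and 527.8. The last value, the day 8 array of batch 2, stayed in the early range. The lowest values were those of Epha1, at -1.45 ± 0.49 (0.0715), and of the A-type ephrin Efna3, at -1.14 ± 0.40 (0.0753), and the second highest was that of Sema3a, at 1.09 ± 0.38 (0.0745). With batch as a covariate Efna3 was called lower (0.04) and Sema3a (0.0288) and Sema3c (1.05; 0.0495) higher, which made 7. No member was called without the batch 1 array of day 7 or the batch 2 array of day 5 or 6, and 2 without either GFP-positive array of day 8. With equal array medians 1 member was higher and 3 lower, and with quantile normalization 2 and 4.

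The batch 1 GFP-negative array of day 8 was also the highest sorted array for Nrp1 and Plxnb2, which are named here because of these values. It was the highest for further members too, among them Efna5, Epha4, Epha7, Ephb3, Sema3a and Sema3c, so this is not particular to the genes named. The share of all genes highest on this array is not given. Nrp1, a coreceptor of class 3 semaphorins and of VEGF, had 2049.5 there and between 389.2 and 1317.2 on the other sorted arrays. Plxnb2, a receptor of class 4 semaphorins, had 511.3 against 109.6 to 269.9. The sum of the 8 fibroblast markers on that array was 20710, the upper end of the sorted arrays. In the GFP-negative fraction 6 of these 8 markers rose between early and late days, and their part in the rise of Epha3 was not tested.

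In the selected cardiomyocytes, 9 members were called higher and 11 lower than in the GFP-positive cells of days 7 and 8. These 20 are 42.6% of the members tested, near the 43.3% of all genes called in this comparison (17.9% higher and 25.5% lower), so the number is no result about guidance genes. Higher were 4 semaphorins (Sema3c, Sema3d, Sema3e, Sema5a), Plxna1 and Plxnb2, Nrp1, Epha3 and Efna5. Lower were 5 semaphorins (Sema3g, Sema4c, Sema4d, Sema4g, Sema6a), Plxnd1, Nrp2, Ephb1 and Ephb4, and Efna1 and Efnb2.

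Sema3e, the secreted ligand of plexin-D1, had signals of 404.9 and 501.6 in the cardiomyocytes. On the 16 sorted arrays it lay between 1.5 and 19.1, below the median of all values. The difference was 4.96 ± 0.41 (log2, SE; 2 arrays against 4; limma adjusted p = 2.44e-06), and with no filter on dim genes the adjusted p was 2.08e-06. Since all sorted arrays were below 22.5, the exact size of this difference is uncertain. Its receptor Plxnd1 went the other way, with 37.9 and 38.1 in the cardiomyocytes against 359.6 to 642.5 in the late GFP-positive cells. That difference was -3.42 ± 0.37 (adjusted p = 1.78e-05). Neither pair of groups overlapped.

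Sema3c stood at 1570.5 and 1765.6 in the cardiomyocytes, beyond any sorted array, the highest of which had 133.5. It was higher by 4.50 ± 0.61 (limma adjusted p = 9.37e-05). Sema3d, a further secreted semaphorin of class 3, had 99.1 and 130.7 against 21.6, 6.7, 41.5 and 24.0, a difference of 2.13 ± 0.44 (0.00176). Not all class 3 semaphorins behaved so: Sema3g had 15.7 and 9.9 and was lower, at -2.43 ± 0.52 (0.00225, and 0.00281 with no filter). Both of these cardiomyocyte signals were below 22.5. Sema5a, a membrane-bound semaphorin, had 72.8 and 56.7 against 15.5, 23.1, 33.3 and 21.8, a difference of 1.27 ± 0.39 (0.0182).

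Windows of the 3 genes with the largest positive difference in the cardiomyocytes are shown for comparison with those of Plxnd1 and Sema3g, from the same build and with the same limits. They lie at chr5:14025026-14025325 (Sema3e, plus strand), chr5:17574566-17574865 (Sema3c, plus strand) and chr16:63864126-63864425 (Epha3, minus strand). Capitals mark a match to the GATA letters.
Sema3e: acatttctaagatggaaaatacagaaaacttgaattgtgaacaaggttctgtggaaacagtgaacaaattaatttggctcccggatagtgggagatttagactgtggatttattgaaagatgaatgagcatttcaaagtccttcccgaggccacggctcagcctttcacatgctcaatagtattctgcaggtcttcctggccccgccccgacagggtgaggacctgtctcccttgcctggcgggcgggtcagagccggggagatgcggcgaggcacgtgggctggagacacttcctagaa
Sema3c: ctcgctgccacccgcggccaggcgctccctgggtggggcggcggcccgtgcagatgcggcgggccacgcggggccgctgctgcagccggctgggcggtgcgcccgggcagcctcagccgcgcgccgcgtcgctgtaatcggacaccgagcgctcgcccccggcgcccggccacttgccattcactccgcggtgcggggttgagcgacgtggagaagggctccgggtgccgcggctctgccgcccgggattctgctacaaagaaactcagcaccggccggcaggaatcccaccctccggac
Epha3: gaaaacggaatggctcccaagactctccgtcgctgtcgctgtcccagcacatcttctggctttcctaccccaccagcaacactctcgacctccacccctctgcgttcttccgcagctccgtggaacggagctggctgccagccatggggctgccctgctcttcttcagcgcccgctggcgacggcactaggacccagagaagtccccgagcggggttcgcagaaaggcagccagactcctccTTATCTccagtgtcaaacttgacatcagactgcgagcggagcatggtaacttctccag
The Epha3 window held the GATA letters once, on the opposite strand and beginning 8 bases before the start, and the other windows held none of the 5 motifs. Their G and C content was 50.7% for Sema3e, 75.7% for Sema3c and 60.7% for Epha3. Of the 53 members, 46 were in the RefSeq promoter table, with 60 windows.

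The receptors differed in both directions. Epha3 had 295.5 and 287.7 in the cardiomyocytes against 10.4, 11.2, 33.5 and 17.3 in late GFP-positive cells, a difference of 3.67 ± 0.69 (limma adjusted p = 9.89e-04). Plxnb2 had 999.6 and 1128.5 against 171.6, 138.5, 236.6 and 269.9, a difference of 2.39 ± 0.42 (5.79e-04). Nrp1 had 2659.5 and 3149.4 against 826.3 to 1219.0 (1.57 ± 0.41; 0.00787). The other neuropilin, Nrp2, had 85.4 and 72.3 against 169.5, 127.9, 239.9 and 291.4, and was lower, at -1.26 ± 0.40 (0.0219). The neuropilins thus differed in opposite directions, each without overlap.

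Plxna1, a partner of neuropilins, was higher by 0.67 ± 0.21 (limma adjusted p = 0.0212), with 215.9 and 237.6 against 103.5 to 171.9. Ephb4, at 47.2 and 40.4, was lower, at -1.37 ± 0.35 (0.00637). Ephb1, a receptor for B-type ephrins, had 3.2 and 20.6 against 24.7 to 40.7 (-1.27 ± 0.43; 0.0303), a difference between dim signals. Without the first cardiomyocyte array its adjusted p was 0.433. Epha2 had 156.3 and 178.1 against 52.1 to 127.3 and was called only with batch as a covariate (0.84; adjusted p = 0.059 and 0.0345).

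Among the ephrins, Efna1 had the lowest value, with 33.9 and 26.7 in the cardiomyocytes against 158.6 to 381.1 (-2.98 ± 0.47, limma adjusted p = 2.81e-04). Efnb2 had 469.0 and 309.6, overlapping the lowest late GFP-positive array of 449.6, and its call (-1.21 ± 0.46; 0.0474) was lost in 11 of 18 fits that left out 1 array, with a highest adjusted p of 0.288. Efna5, an A-type ephrin, was higher, with 442.9 and 362.4 against 97.6 to 174.8 (1.48 ± 0.34, limma adjusted p = 0.00347). With the mean of all its probe sets, the value for Efna5 was 0.56 and the adjusted p 0.134.

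The membrane-bound semaphorins called were lower, apart from Sema5a. Sema4c had 76.1 and 63.2 against 182.1 to 328.9 (-1.64 ± 0.37; limma adjusted p = 0.00334). Sema4g had 25.7 and 16.9 against 46.8 to 148.9 (-1.61 ± 0.34; 0.00194). Sema4d had 38.4 and 49.9 against 106.3 to 177.5 (-1.53 ± 0.36; 0.00377), but -0.23 with an adjusted p of 0.37 for the mean of its probe sets. Sema6a had 26.4 and 22.5 against 29.0 to 81.4 (-0.95 ± 0.33; 0.0325).

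**Figure D3:**
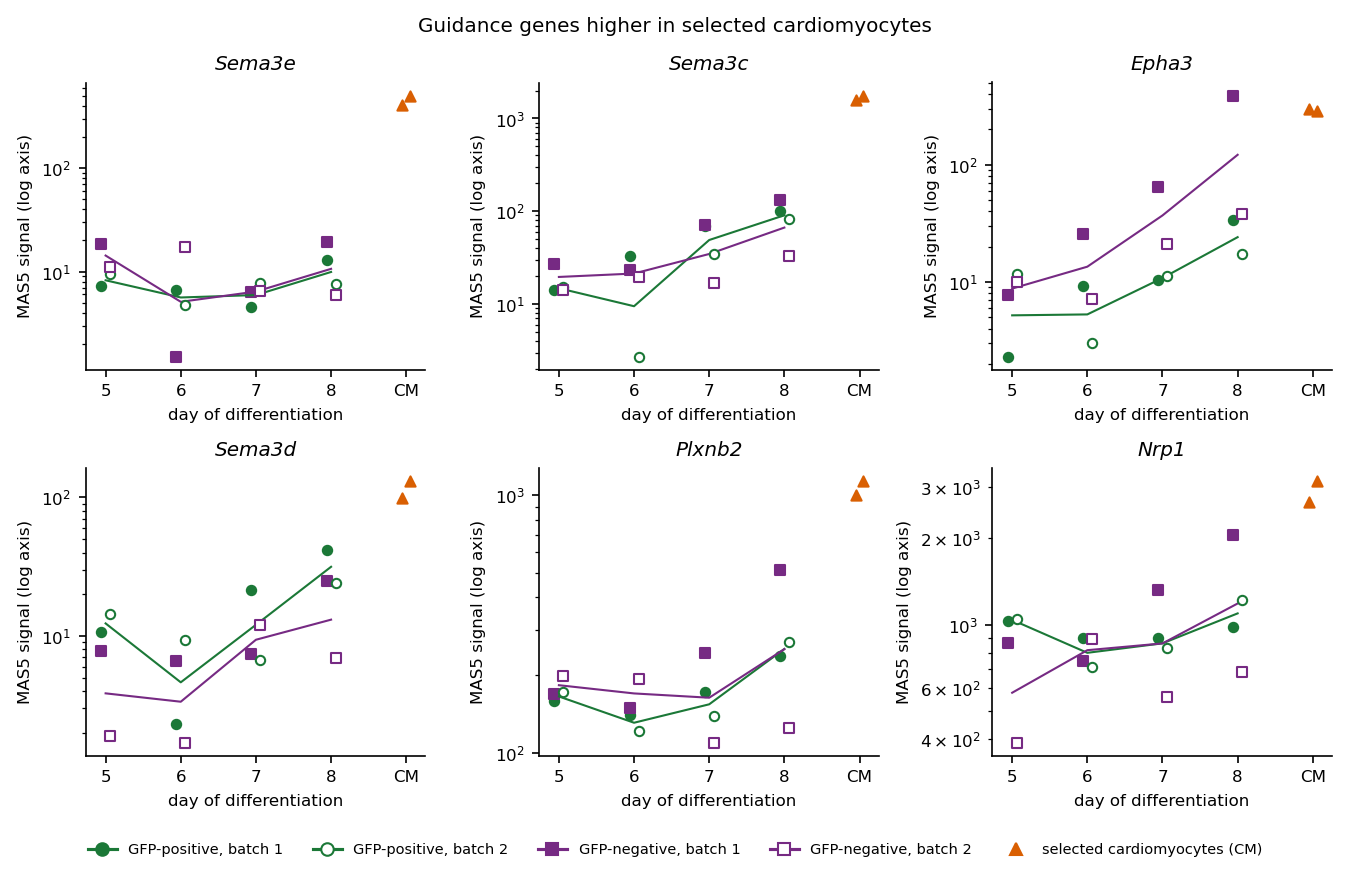
MAS5 signal (log axis) of 6 guidance genes higher in selected cardiomyocytes (CM, orange triangles) than in the GFP-positive cells of days 7 and 8, by day of differentiation; circles are GFP-positive and squares GFP-negative arrays, filled for batch 1 and open for batch 2, and lines are geometric means of the batches. Both cardiomyocyte arrays lie above all sorted arrays in 5 panels, and for Epha3 the GFP-negative array of day 8, batch 1, is higher at 387.8.

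The split of these 20 calls depended on the scaling. With equal array medians it was 14 higher and 7 lower, and with quantile normalization 12 and 9, since the median of all genes moved from -0.13 to 0.25 under the former. No called member changed sign under either. Under equal medians the calls of Efnb2 (-0.79; adjusted p = 0.143), Ephb1 (-0.98; 0.111), Nrp2 (-0.86; 0.0718) and Sema6a (-0.59; 0.171) were lost. Without the second cardiomyocyte array 13 members were called, 6 higher and 7 lower.

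Markers of several cell types differed between these groups as well. Of 15 endothelial markers, 14 were called lower in the cardiomyocytes, where their sum was 690 to 707 against 6001 to 10922, and Pecam1, Tie1, Erg, Sox18 and Plvap were under 22.5 on both arrays. The 8 blood markers were all called lower, with sums of 160 to 167 against 20307 to 23076. Visceral endoderm sums were 276 to 364 against 6909 to 20398. The heart muscle sum was 75349 to 75770 against 21093 to 33924. Fibroblast markers summed to 22618 to 22678 against 2414 to 3018, and smooth muscle markers to 16880 to 17678 against 5060 to 6870. Their part in the differences of the guidance genes was not tested.

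**Figure D4:**
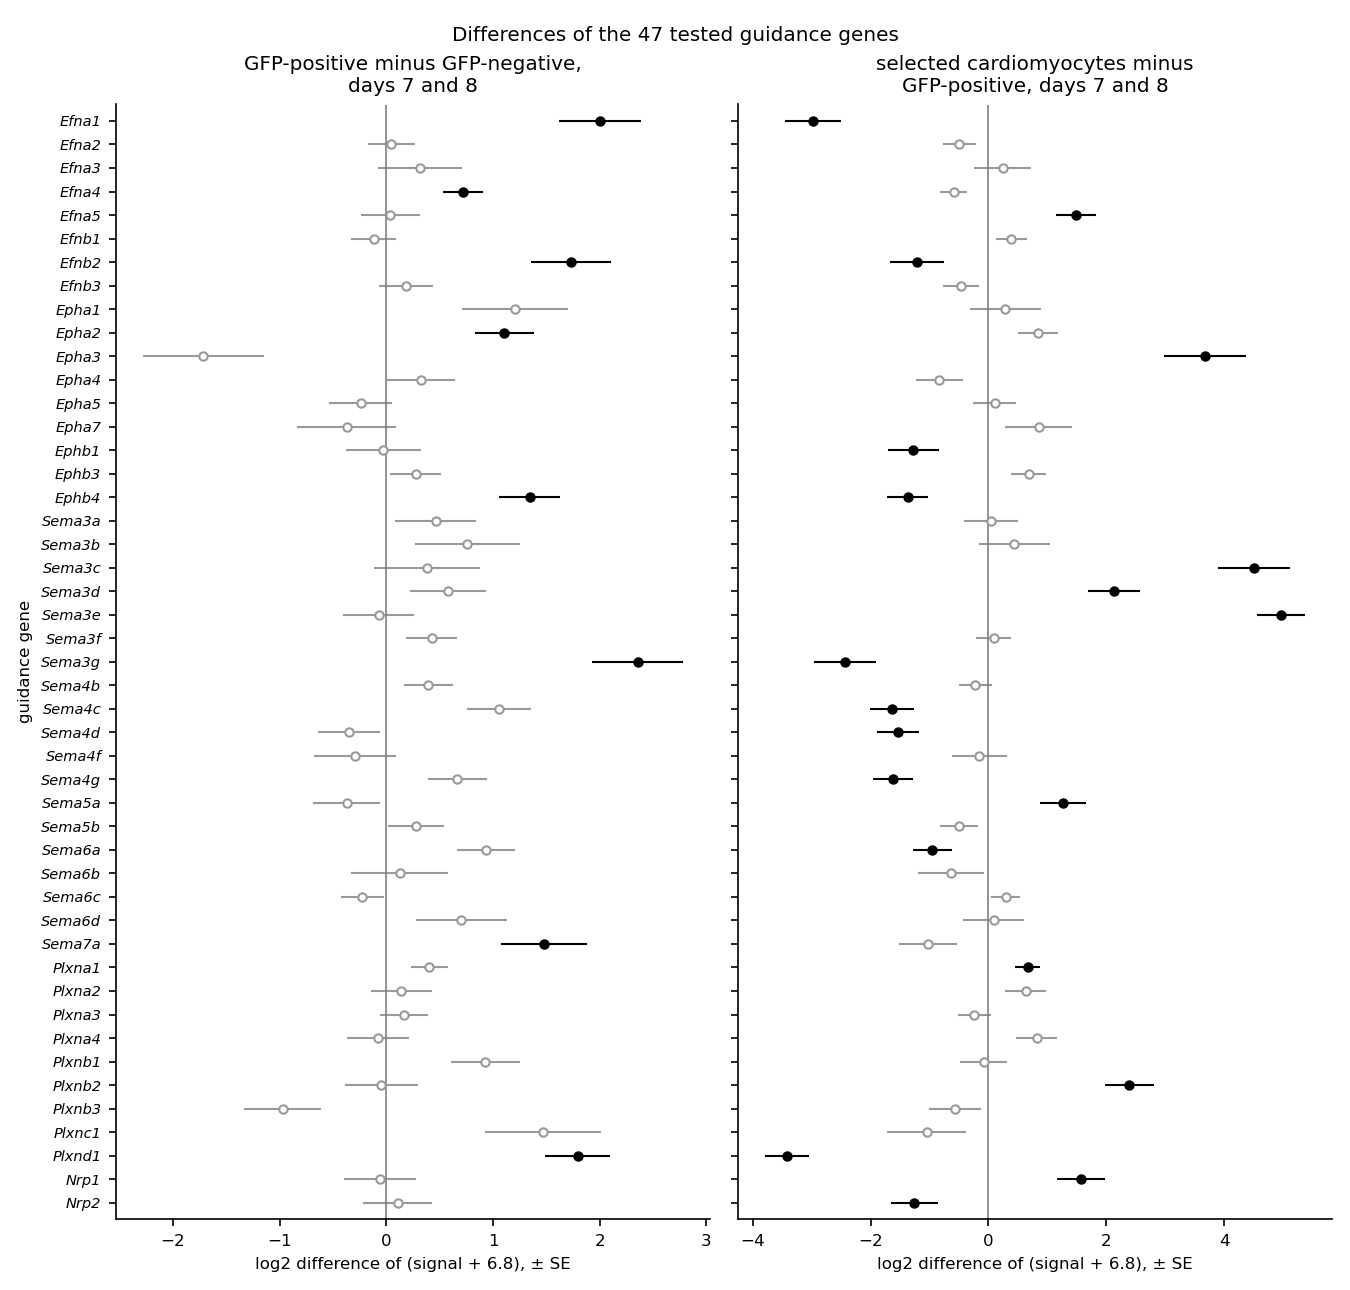
Log2 differences of the 47 tested guidance genes with their SE, for GFP-positive minus GFP-negative cells of days 7 and 8 (left, 4 arrays against 4) and selected cardiomyocytes minus those GFP-positive cells (right, 2 against 4); filled black points passed an adjusted p of 0.05. Both panels use the GFP-positive arrays of days 7 and 8, so their values are not independent of each other, and Plxnd1 is at 1.79 on the left and -3.42 on the right.

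Several members known from heart or vessel development were not called between the late fractions. Of these, Epha4, Plxna2, Plxna4 and Sema6d were called in none of the 7 comparisons. Epha4, a receptor for both classes of ephrin, had 84.7 to 361.8 on the sorted arrays and 113.7 and 118.5 in the cardiomyocytes, with a GFP difference of 0.32 ± 0.32 on days 7 and 8 (limma adjusted p = 0.578). Plxna2, a receptor in neural crest cells of the outflow tract, differed by 0.14 ± 0.28 between those fractions (0.809) and by 0.63 ± 0.35 in the cardiomyocytes (0.161). Plxna4, a further partner of neuropilins, had -0.08 ± 0.29 (0.906) and 0.82 ± 0.35 (0.0772). Nrp1 and Nrp2 differed by -0.06 ± 0.34 (0.941) and 0.11 ± 0.33 (0.883) between the late fractions, with opposite signs in the batches: -0.80 and 0.69 for Nrp1, and -0.48 and 0.69 for Nrp2. Sema6d differed by 0.70 ± 0.43 between the late fractions (0.339). With these standard errors, differences of this size were not detectable with this number of arrays.

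Plxnc1, a plexin that binds Sema7a, had the higher signal on the GFP-positive array of all 8 pairs but was not called. Its late signals were 208.3, 203.0, 278.7 and 264.2 in GFP-positive and 75.2, 43.8, 127.8 and 98.7 in GFP-negative cells. The difference was 1.47 ± 0.54 (limma adjusted p = 0.122), and 1.25 ± 0.38 (0.102) over all days. On day 5 the batches were far apart, with 195.8 and 17.3 in GFP-positive cells. Sema4c too was higher in 8 of 8 pairs. The lowest values over all days were those of Epha3 (-1.11 ± 0.40; 0.157) and of Plxnb3, a receptor of Sema5a (-0.77 ± 0.26; 0.13), which was under 22.5 on 13 of 18 arrays.

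Other genes of the guidance pathways were taken from a list of 77, of which 68 were tested. Over all days 5 were called higher in GFP-positive cells and 0 lower, 7.4% beside 2.68% of all genes. They were the VEGF receptors Flt1 (1.55; limma adjusted p = 0.00634) and Kdr (1.42; 0.00656), which are also endothelial markers, and the exchange factors Arhgef15 (1.57; 1.85e-04), Tiam1 (1.22; 6.23e-05) and Arhgef12 (0.52; 0.0318). Arhgef15 acts below Eph receptors in vessel cells, and Arhgef12 below B-type plexins. Arhgef15 (1.25; 0.0279) and Tiam1 (1.06; 0.00944) were also the 2 called on days 5 and 6 (2.9% beside 0.149% of all genes), where no ligand or receptor of the guidance set was.

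On days 7 and 8, 11 of the 68 partners were higher and 0 lower, 16.2% beside 6.63% of all genes. Those with the largest differences were Flt1 (2.61), Arhgef15 (1.88), the kinase Met (1.77), which associates with B-type plexins, and Kdr (1.60). Dpysl3, a cytoplasmic protein of semaphorin signalling, followed with 1.54, and Tiam1 with 1.38. The Slit receptor Robo1 (1.19) and the netrin receptor Dcc (1.10) were called too, with adjusted p = 0.0469 and 0.0356 by limma. In the cardiomyocytes 16 partners were higher and 15 lower, 45.6% and so near the 43.3% of all genes. Kdr (-4.40), Arhgef15 (-3.72), Flt1 (-3.05), Tiam1 (-2.46) and Vav3 (-1.99), an exchange factor, were lower. Mical2 (2.22), an enzyme acting on actin, Dpysl3 (2.17) and the netrin Ntn4 (2.10) were higher.

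With time, 10 partners rose and 1 fell in GFP-positive cells, 16.2% beside 19.4% of all genes. The largest rises were those of Met (1.54; limma adjusted p = 0.0195) and Flt1 (1.44; 0.0132), while Vav2 fell by 0.73 (0.0431). In GFP-negative cells 3 rose and 2 fell, 7.4% beside 12.5% of all genes. The falls were those of Dcc, by 1.24 (0.0158), and of Robo1, by 1.09 (0.0448). The change of the GFP difference was called for 0 of the 68.

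The genes of the pathway and marker lists whose signals followed a member most closely were read from Pearson's r over arrays, which share days, batches and processing. For Plxnd1 they were the endothelial genes Plvap (r = 0.975 over 18 arrays, 0.961 over the 16 sorted ones), Icam2 (0.947 and 0.945) and Esam (0.941 and 0.912). For Sema3e they were Tagln (0.914), Rras (0.904) and Myh11 (0.896), and over the 16 sorted arrays these values were 0.208, 0.301 and 0.118, so the likeness rested on the 2 cardiomyocyte arrays. For Sema3c they were Itgb1 (0.936 and 0.749), Rras (0.931 and 0.692) and Actn2 (0.924 and 0.735). Sema3g and Efnb2 were added after their values were seen. Sema3g followed the endothelial gene Emcn (0.907 and 0.903) and the visceral endoderm genes Apob (0.904 and 0.932) and Apoa1 (0.876 and 0.892). For Efnb2 they were the endothelial genes Flt1 (0.801 and 0.853), Flt4 (0.798 and 0.877) and Eng (0.793 and 0.901).

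Most members had more than 1 probe set: 124 probe sets for the 53 genes, and 36 genes with more than 1. Of the 43 called differences, 17 had another probe set that reached 22.5, and of 27 such probe sets 2 had the opposite sign. These belonged to Epha3 in the GFP-negative fraction and to Nrp1 in the cardiomyocytes. Of the 43, 12 were called under every alternative setting and in every fit that left out 1 array. Plxnd1 gave 3 of them, over all days, on days 7 and 8 and in the cardiomyocytes, and the other 9 were those of Efna1, Epha3, Plxnb2, Sema3c, Sema3d, Sema3e, Sema3g, Sema4c and Sema4g in the cardiomyocytes. Sema3e and Sema3g reached 22.5 only on arrays of the group where they are high, so their place in this count is no support for it.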

How the data were processed

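RNA was amplified in 2 rounds with an oligo dT primer and hybridised to Affymetrix mouse arrays, per the labels' protocols. The authors deposited linear intensity values (MAS5 signals), for which the submitters' processing notes name GCOS 1.4 and MAS5. The trimmed mean of every array was 150.0, the array medians lay between 18.2 and 29.3, and precision is limited by how many arrays there are. No detection calls were used.

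Of 45101 probe sets, 64 controls, 9160 without a symbol and 932 with several were left out. Symbols of 34741 probe sets were checked through Entrez identifiers, and 0 changed. Each of 18193 genes was read from its brightest probe set, and type x was passed over where the gene had another. A gene was tested if 2 or more arrays reached 22.5 (the overall median). Signals were log-transformed as log2(signal + 6.8); the added value is the 25th percentile. Group means of 9 groups of 2 arrays were compared in limma 3.58.1 (R 4.3.3), using a variance trend and 9 residual degrees of freedom, and p-values were adjusted by Benjamini-Hochberg over 13379 genes. The fit was tested on simulated data. Figures were drawn in matplotlib 3.10.9 under Python 3.11.15.

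Groups and batches came from the titles. The titles name the number a batch, which pairs the sorted arrays. Batch differences of 28 pairs of groups correlated across genes with r from -0.183 to 0.653 (median 0.082). Batch as a covariate was an alternative, beside the offset, scaling, filter, choice of probe sets, variance trend, array weights, the sorted arrays alone and leaving out each array.

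The members, gene lists and tests were chosen with earlier results of these data known. Named were all called members, 14 genes known from vessels, heart or gastrulation, the 2 largest differences each way in a comparison, and up to 8 called partners per comparison. Sema4c and Plxnc1 were also named after their values were seen.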

Additional observations from a re-analysis of the deposited data

Results flagged for a closer look

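For 2 members the difference between the fractions had one sign in every early pair and the opposite sign in every late pair. The share of all genes with this pattern is not given. The 2 members were picked by these same values, so the p-values below are no support for the pattern. Efna4, an A-type ephrin, was lower in GFP-positive cells in all 4 pairs of days 5 and 6, by 0.22 to 0.64 on the log2 scale, and higher in all 4 pairs of days 7 and 8, by 0.40 to 1.07. The change was 1.15 on the log2 scale, with an unadjusted p of 7.73e-04 and an adjusted p of 0.0815 by limma. Epha1, a receptor for A-type ephrins, changed by 2.28 in the same manner, with an unadjusted p of 0.00619 and an adjusted p of 0.183. Its signal reached 22.5 on 4 of 18 arrays, the highest being 105.4 in GFP-negative cells of day 5, batch 2. Neither change passed the threshold after adjustment over all genes, and groups of 2 arrays were too small for a search for outlying arrays.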

How the results depend on the processing

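Of 43 called differences of single members, 23 were kept in all alternative settings that used every sample of the comparison and tested the gene. In all 18 fits that left out 1 array, 14 were kept. No called value reversed. The number of members called over days 5 to 8 was 4, and 2 with an offset of 1. On days 7 and 8 it was 8 of 47, and 5 with equal array medians or with the sorted arrays alone. With a filter at the 75th percentile it was 5 of the 26 members then tested, so that count is not a like one. In GFP-negative cells over time it was 4, and 2 without a variance trend. With the mean of the probe sets of a gene it was 1 of the 43 members then tested. The change of the GFP difference had 0 calls, and 1 with quantile normalization. With batch as a block, the count was 1 on days 5 and 6, 7 in GFP-negative cells over time and 1 for the change of the GFP difference. Of all 13379 genes, 35, 2400 and 142 were then called, beside 20, 1673 and 19 in the main fit. Leaving out 1 array gave 1 to 6 calls over all days, 0 on days 5 and 6, 1 to 10 on days 7 and 8, and 0 to 10 and 0 to 6 over time in GFP-positive and GFP-negative cells. It gave 0 to 2 for the change of the GFP difference and 13 to 22 for the cardiomyocytes. Where an array was left out, its partner was taken to vary as arrays of other groups do. Signals near the median of all values are not well separated from background here, so differences between dim genes are the least certain.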
